A study of Mus musculus with 12 samples.

Results

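The transcription factor NF-kB, proteins that switch it off and atypical IkB proteins were followed in CD11b+ cells of the mouse hippocampus 1 month after cranial irradiation. The 10 listed genes were the subunits Nfkb1, Nfkb2, Rela, Relb and Rel, the inhibitors Nfkbia, Nfkbie and Tnfaip3, and the atypical IkB proteins Nfkbiz and Bcl3. Of the 10, 9 had a probe set that names 1 gene, among 18193 such genes. Of these, 8 passed a filter on dim genes (a log2 value above 5 on 3 arrays or more), as did 9120 genes in all. Nfkb1 was not analysed here, and Bcl3 lay below the filter and is given by its values alone. Each gene was read from its brightest probe set by the 12-array mean, and its other probe sets served as checks.

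The cells came from female mice of the strains C57BL/6 and Balb/c, treated at 6.5 weeks and analysed at 10.5 weeks of age. The irradiated groups received 10 Gy of X-rays as a single dose to a 1 cm field over the forebrain under ketamine and xylazine, with the eyes, nose and cerebellum shielded. The sham groups are labelled sham irradiated, and the labels give a single protocol for all mice without saying which of its steps the sham mice went through. From each animal 5000 to 10000 cells were sorted by flow cytometry, and RNA with an integrity number above 7.4 went through a double linear amplification onto 1 Affymetrix array per mouse. There were 3 mice in each of the 4 groups, C57BL/6 sham, C57BL/6 irradiated, Balb/c sham and Balb/c irradiated. The number of arrays limits the precision, and p-values measure only the spread between these mice. A pair of arrays stood apart: replicate 3 of the C57BL/6 irradiated group was the lowest of its group in 42.5% of all tested genes, and replicate 2 of the Balb/c irradiated group had the highest 3' minus 5' signal, a measure of RNA breakage, of 4.82. This pair was taken from earlier results of these data. C57BL/6 sham replicate 1, which is not of the pair, was the highest of its group in 41.5% of all tested genes.

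NF-kB is a dimer of Rel family proteins that the IkB proteins hold in the cytoplasm. Signals from cytokine and Toll-like receptors activate the IKK kinases, which mark IkB for destruction and release the dimer to the nucleus. Several of the genes it switches on, among them Nfkbia, Nfkbie and Tnfaip3, encode its own inhibitors, so that their mRNA is often read as a sign of how active the pathway is in macrophages and microglia.

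The promoters are shown first because the feedback loop runs through them. In RefSeq promoter windows of the GRCm38.p6 build, 250 bases before to 50 after an annotated start, the κB motif was searched on both strands, and overlapping matches were counted. It was found in 2779 of 32851 windows (8.46%) and in 2581 of 27025 genes (9.55%). Of the listed genes 7 were in the table and 6 of them had a match; Nfkb1, Relb and Nfkbiz were not in it. Nfkb2 had matches in 3 windows, of which the last 2 overlap and share a site, Rel, Nfkbia, Nfkbie and Bcl3 in their only window, and Tnfaip3 in its second window but not in its first. The windows of the genes whose inhibitor transcripts the results turn on are given 5′ to 3′ on the gene's strand, with each motif match in capitals: Tnfaip3 at chr10:19015361-19015660 (- strand), Nfkbie at chr17:45555450-45555749 (+ strand) and Nfkbia at chr12:55492598-55492897 (- strand).
Tnfaip3: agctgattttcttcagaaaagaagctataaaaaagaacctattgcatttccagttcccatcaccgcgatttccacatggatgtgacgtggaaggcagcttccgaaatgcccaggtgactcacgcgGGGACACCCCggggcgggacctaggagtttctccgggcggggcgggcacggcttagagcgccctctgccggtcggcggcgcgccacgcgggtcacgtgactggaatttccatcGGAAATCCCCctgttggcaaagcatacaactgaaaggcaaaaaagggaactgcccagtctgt
Nfkbie: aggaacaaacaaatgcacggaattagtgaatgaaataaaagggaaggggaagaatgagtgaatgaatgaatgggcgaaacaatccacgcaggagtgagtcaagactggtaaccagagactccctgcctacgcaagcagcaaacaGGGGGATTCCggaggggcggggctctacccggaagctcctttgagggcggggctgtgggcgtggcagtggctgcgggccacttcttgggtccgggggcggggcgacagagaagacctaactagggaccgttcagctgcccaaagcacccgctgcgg
Nfkbia: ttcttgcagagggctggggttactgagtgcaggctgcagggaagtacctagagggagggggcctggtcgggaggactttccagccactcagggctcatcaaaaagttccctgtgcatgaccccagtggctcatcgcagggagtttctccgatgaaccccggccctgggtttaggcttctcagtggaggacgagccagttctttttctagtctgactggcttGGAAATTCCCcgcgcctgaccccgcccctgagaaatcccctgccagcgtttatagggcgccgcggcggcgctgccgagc

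Counted from the first transcribed base, the Tnfaip3 matches began at -125 and -12, the Nfkbie match at -106 and the Nfkbia match at -29. A match each of Rel, Bcl3 and the first Nfkb2 window is shown for comparison of the motif letters among the feedback genes, each as it reads on the gene's strand.
Rel: GGGAAATCCC
Bcl3: GGGAAGTCCC
Nfkb2: GGGGCTTTCC
These began at -92, 3 and -11. Rela had no match in its only window, which says only that these letters are not in it. A match is a description of the sequence, and binding was not measured here.

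After irradiation the mRNA of the feedback inhibitors Tnfaip3 and Nfkbie was lower than in sham mice in the mean of both strains, while that of Nfkbia and of Nfkbiz did not pass the test. The Tnfaip3 call held under every array left out, with an RNA quality covariate and without the pair of arrays, and the Nfkbie call held under every array left out but not in the latter settings. In the mean of both strains Tnfaip3 fell to 70.4% and Nfkbie to 73.2% of the sham level. Among the subunits, Rela and Nfkb2 had lower means without passing the test, and Relb did not pass either. For Rel the filter favoured a lower value after irradiation, so its direction is not read as a result. No member passed as higher. The test was limma's moderated test with 1 mean per group, Benjamini-Hochberg adjusted over the 9120 genes, and a call needs an adjusted p under 0.05.

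In the mean of both strains 2 of the 8 tested members were called, both lower, where 15.9% of all tested genes were called, 7.72% higher and 8.15% lower. In Balb/c 1 of 8 was called, Tnfaip3, lower, against 6.15% of all genes, 3.26% higher and 2.89% lower. There 4 of 8, all lower, had an unadjusted p under 0.05, as 22.8% of all genes did, 13% of all genes in the lower direction. In C57BL/6 none of 8 was called by limma, against 3.67% of all genes (2.21% higher and 1.46% lower), and 3 of 8, all lower, had an unadjusted p under 0.05, as 21.3% of all genes did, 11% in the lower direction. Over both strains 5 of 8, all lower, had such a p, against 31.7% of all genes and 17.7% in the lower direction. The Balb/c count of 4 and this count of 5 include Rel, for which the filter favoured a lower value. The median log2 difference over the 8 was -0.22 in C57BL/6 and -0.30 in Balb/c, where the median over all tested genes was -0.04 in both. In the mean of both strains the 8 had a median of -0.35 and all genes -0.05. Leaving out each array moved the members' median from -0.39 to -0.18 in C57BL/6, from -0.38 to -0.26 in Balb/c and from -0.40 to -0.19 in the mean. It was -0.39 in C57BL/6 without C57BL/6 sham replicate 3. In the mean it was -0.19 without C57BL/6 sham replicate 1 and -0.22 without Balb/c sham replicate 2, settings in which Rel left the filter and 7 members were tested. These medians describe the tested members only. Rel passed the filter through sham arrays alone, so that the filter favoured a lower value after irradiation. The mean of both strains uses the same 12 arrays as the single-strain comparisons and is no separate evidence.

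**Figure D1:**
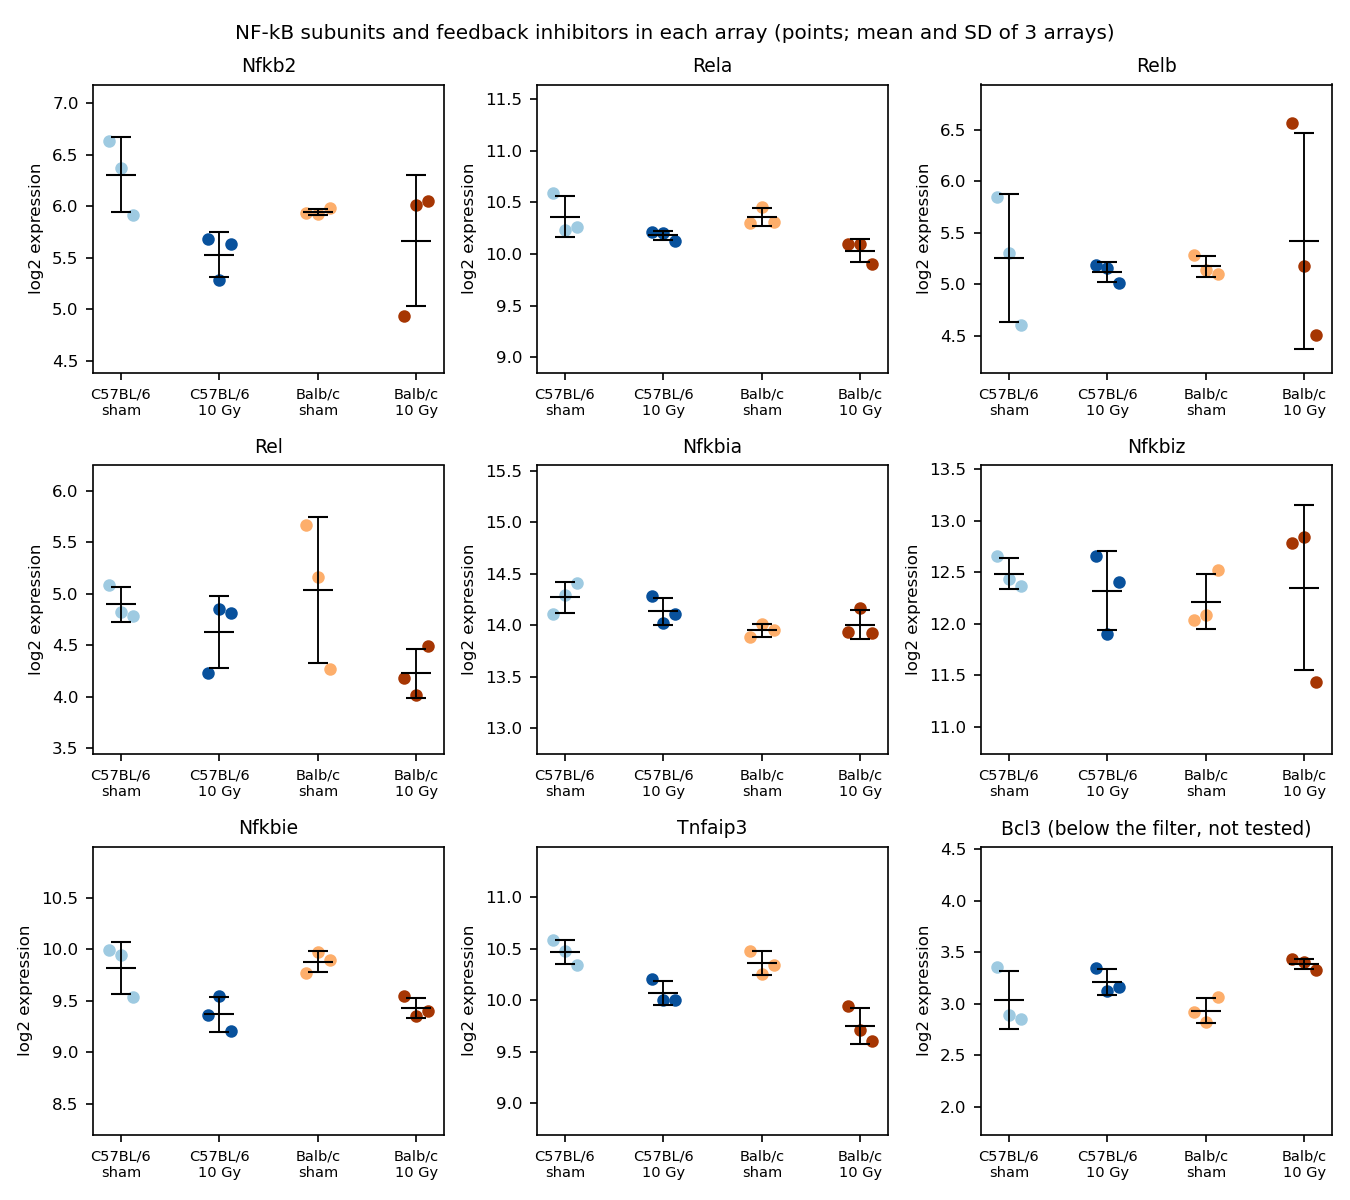
Log2 values of the 9 measured members in each of the 12 arrays. Points are mice, and bars are the mean and SD of 3 mice; the y axes of all panels cover an equal number of log2 units but start at different levels. The irradiated arrays of Tnfaip3 and Rela lie below the sham arrays in both strains, whereas those of Nfkbia and Nfkbiz overlap them.

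Rela, the main transactivating subunit of the classical pathway, had log2 values of 10.59, 10.23 and 10.26 in C57BL/6 sham and 10.21, 10.20 and 10.13 in irradiated C57BL/6 mice. Balb/c mice had 10.30, 10.46 and 10.31 after sham treatment and 10.10, 10.10 and 9.90 after irradiation. Every irradiated array lay below every sham array of its strain, in C57BL/6 by a narrow margin (10.21 against 10.23 at the nearest). Without C57BL/6 sham replicate 1 the C57BL/6 difference was -0.07 (limma adjusted p = 0.793). Such a separation in both strains, downward, was seen in 5.66% of all tested genes and, among the 8 members, in Rela and Tnfaip3. The Rela difference was small, -0.18 ± 0.12 (log2, SE) in C57BL/6 with an adjusted p of 0.407 and -0.32 ± 0.12 in Balb/c with an adjusted p of 0.147. In the mean of both strains it was -0.25 (95% interval -0.44 to -0.06), or 84.1% of sham, with an adjusted p of 0.0734, so Rela was not called.

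Nfkb2, the precursor subunit of the alternative pathway, had log2 values of 6.63, 6.37 and 5.91 in C57BL/6 sham and 5.68, 5.28 and 5.63 in C57BL/6 irradiated arrays, which lay lower without overlap, as in 15.1% of all tested genes. In Balb/c the values were 5.93, 5.92 and 5.98 in sham and 4.93, 6.01 and 6.05 in irradiated arrays, where replicate 1 alone was low and the groups overlap. Neither comparison passed the limma test, with a log2 difference of -0.78 ± 0.28 (adjusted p = 0.148) in C57BL/6 and -0.28 ± 0.28 (adjusted p = 0.608) in Balb/c. Without Balb/c irradiated replicate 1 the Balb/c difference was 0.09. The probe set read here, 1429128_x_at, is of a class that the array maker marks as open to cross-hybridization, and the other Nfkb2 probe set stayed between 3.33 and 3.49 in all 12 arrays.

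Rel, the subunit best known from lymphocytes, was near the filter, with 5.09, 4.82 and 4.78 in C57BL/6 sham and 4.23, 4.85 and 4.81 in irradiated C57BL/6 mice. In Balb/c it had 5.67, 5.16 and 4.27 in sham and 4.18, 4.02 and 4.49 in irradiated arrays. Only 3 arrays were above 5, all of them sham, and without C57BL/6 sham replicate 1 or Balb/c sham replicate 1 or 2 Rel left the filter. The log2 difference was -0.26 ± 0.31 in C57BL/6 (adjusted p = 0.652) and -0.80 ± 0.31 in Balb/c (adjusted p = 0.15). Since sham arrays alone carried it past the filter, no test of Rel is read as a result.

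Relb, the partner of Nfkb2 in the alternative pathway, had 5.85, 5.30 and 4.61 in C57BL/6 sham and 5.19, 5.16 and 5.01 in irradiated C57BL/6 mice. In Balb/c it had 5.29, 5.14 and 5.10 in sham and 6.57, 5.18 and 4.51 in irradiated arrays. The irradiated Balb/c arrays thus held both the highest and the lowest value of this gene. Its mean difference over both strains was 0.05, with a 95% interval of -0.63 to 0.74. The SD of its residuals around the group means, 0.62, was at the 95th percentile of all tested genes, whose median was 0.22, against the 13th percentile for Rela.

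Tnfaip3 encodes A20, a ubiquitin-editing enzyme that shuts off signalling from TNF and Toll-like receptors. Its log2 values were 10.58, 10.48 and 10.34 in C57BL/6 sham and 10.20, 10.00 and 10.00 in irradiated C57BL/6 mice. In Balb/c they were 10.48, 10.25 and 10.34 in sham and 9.94, 9.71 and 9.60 in irradiated arrays. In both strains all 3 irradiated mice lay below all 3 sham mice. The group means were 10.47 ± 0.12 (SD, n = 3) and 10.06 ± 0.11 in C57BL/6, and 10.36 ± 0.12 and 9.75 ± 0.17 in Balb/c.

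The Tnfaip3 difference was -0.61 ± 0.12 in Balb/c (95% interval -0.88 to -0.33, adjusted p = 0.0181), or 65.6% of sham. In C57BL/6 it was -0.40 ± 0.12 (-0.68 to -0.13), or 75.6% of sham, and missed the threshold with an adjusted p of 0.101. The strains were not shown to differ in this effect: the difference of differences was -0.21, with a 95% interval of -0.59 to 0.18 and an adjusted p of 0.782. Over both strains Tnfaip3 fell by 0.51 on the log2 scale (adjusted p = 0.00473, lower in 6 of 6 irradiated mice than the sham mice of their strain), and this call held without each array in turn, with adjusted p from 0.00403 to 0.0145. The Balb/c call alone was lost without Balb/c sham replicate 1 (adjusted p = 0.076), Balb/c irradiated replicate 2 (0.0558) or Balb/c irradiated replicate 3 (0.0698).

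Nfkbie encodes IkB epsilon, a slower-acting member of the IkB family. It had 9.99, 9.94 and 9.53 in C57BL/6 sham and 9.36, 9.54 and 9.20 in C57BL/6 irradiated arrays, with an overlap of a single pair of arrays. In Balb/c the values were 9.77, 9.97 and 9.89 in sham and 9.54, 9.35 and 9.40 in irradiated arrays, with no overlap, as in 16.3% of all tested genes. The differences were alike in size, -0.45 ± 0.14 in both strains, and neither passed alone (adjusted p = 0.11 in C57BL/6 and 0.0929 in Balb/c). In the mean of both strains Nfkbie fell by 0.45 on the log2 scale (95% interval -0.67 to -0.23, adjusted p = 0.0155). The difference between the strains' effects was 0.01 with a 95% interval of -0.44 to 0.46. Leaving out each array in turn kept the call of the mean, with adjusted p from 0.00633 to 0.041, and without C57BL/6 sham replicate 3 the C57BL/6 difference was also called (-0.60, adjusted p = 0.0481). The call of the mean was lost with the 3' minus 5' signal as a covariate (adjusted p = 0.0611) and without the pair of arrays that stood apart (0.0683), and the second Nfkbie probe set was not called (0.0743).

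Nfkbia encodes IkB alpha, the fast feedback inhibitor. It had 14.11, 14.29 and 14.41 in C57BL/6 sham and 14.28, 14.02 and 14.11 in irradiated C57BL/6 mice. In Balb/c the values were 13.89, 14.01 and 13.95 in sham and 13.93, 14.17 and 13.92 in irradiated arrays. Sham and irradiated arrays overlap in both strains. The mean difference over both strains was -0.04 ± 0.09, with a 95% interval of -0.23 to 0.15 (adjusted p = 0.787), so that, for this probe set, a change of more than 1.17-fold lies outside the interval. The other 4 probe sets had mean differences from -0.11 to -0.30, none called, and the interval of 1448306_at ran from -0.53 to -0.07 (adjusted p = 0.0861). Among these probe sets the intervals reached changes of up to 1.57-fold.

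Nfkbiz encodes IkB zeta, an atypical nuclear IkB protein that helps to switch on secondary inflammatory genes. It had 12.66, 12.43 and 12.37 in C57BL/6 sham and 12.66, 11.90 and 12.40 in C57BL/6 irradiated arrays. The Balb/c values were 12.04, 12.08 and 12.52 in sham and 12.78, 12.84 and 11.43 in irradiated arrays, where replicate 3 was lower than all other arrays and replicates 1 and 2 were higher. The mean difference was -0.01 ± 0.24, with a 95% interval of -0.55 to 0.52 (adjusted p = 0.974). Its residual SD of 0.47 was at the 90th percentile, so the interval is wide beside that of Nfkbia.

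Bcl3, an atypical IkB protein that works with NF-kB dimers in the nucleus, stayed under 5 in all arrays and was not tested. Its means were 3.04 ± 0.28 in C57BL/6 sham, 3.21 ± 0.12 in C57BL/6 irradiated, 2.93 ± 0.12 in sham Balb/c and 3.39 ± 0.06 in irradiated Balb/c mice. The Balb/c values did not overlap, from 2.82 to 3.06 in sham and from 3.33 to 3.43 in irradiated arrays, a separation upward that 12.8% of the tested genes showed. They are close to the bottom of the scale, 2.23.

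**Figure D2:**
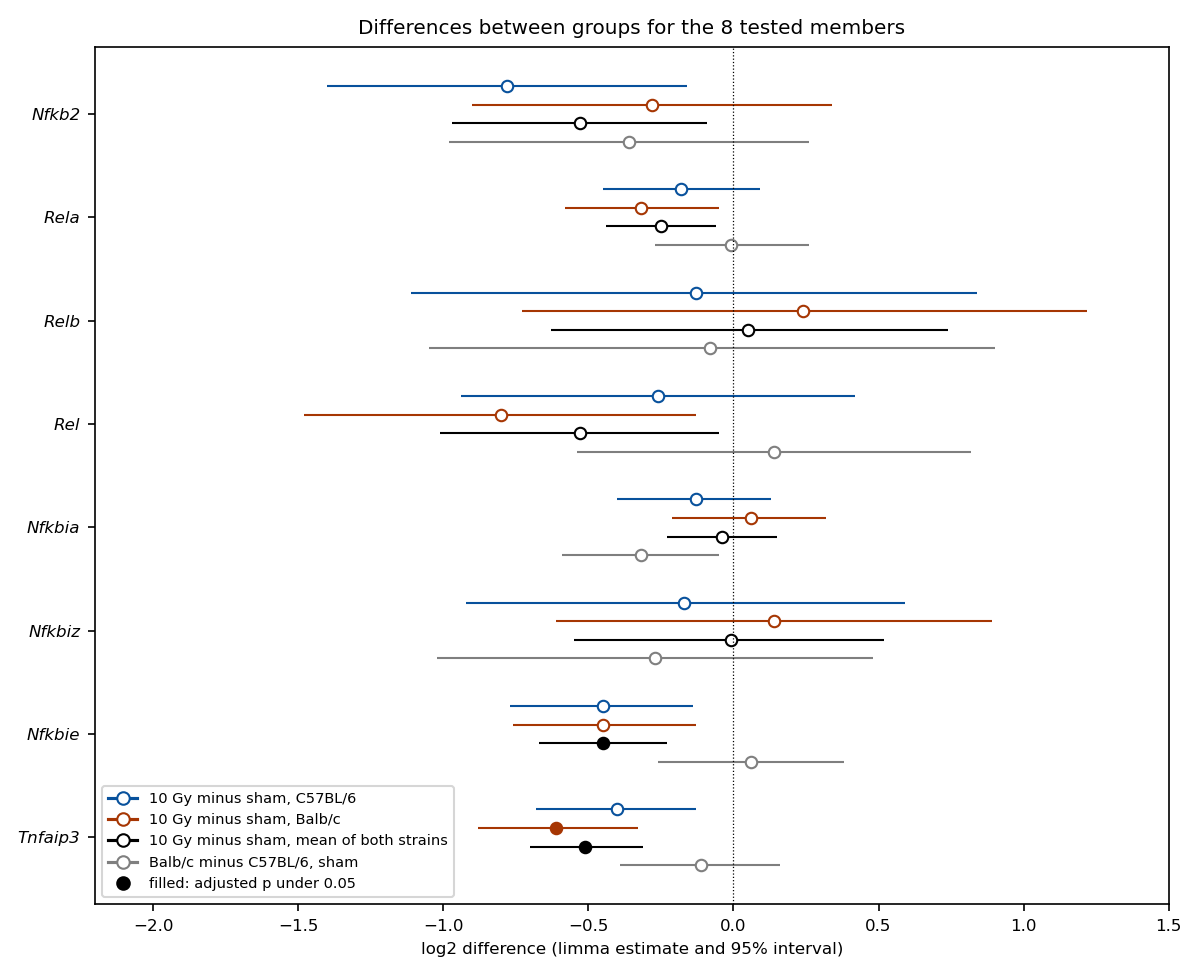
Log2 differences of irradiated against sham for the 8 tested members, with 95% intervals from the limma fit, in C57BL/6, in Balb/c and in the mean of both, and of Balb/c against C57BL/6 in sham mice, with called values filled. The irradiation intervals of Tnfaip3 and Nfkbie lie below 0 in all 3 comparisons, and those of Relb and Nfkbiz include 0 in all 3.

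The effects in the strains were then compared directly. None of the 8 members differed between strains in its response by limma, where 0.0768% of all genes (7 genes) did, and none had an unadjusted p under 0.05 in this comparison, against 8.06% of all genes. The strains themselves were compared next, on arrays shared with the irradiation comparisons. In sham mice no member was called by limma, against 10.5% of all genes, and 1 had an unadjusted p under 0.05, as 22.8% of all genes did. It was Nfkbia, lower in Balb/c by -0.32 ± 0.12 on the log2 scale (adjusted p = 0.136), with the 3 Balb/c sham arrays below the 3 C57BL/6 sham arrays, as in 12.3% of all genes. In irradiated mice no member was called by limma against 8.97% of all genes, and 1, Tnfaip3, had an unadjusted p under 0.05, as 22.5% of all genes did (-0.32 ± 0.12, adjusted p = 0.158). Its arrays and those of Rela lay lower in Balb/c without overlap, as in 12.3% of all genes.

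The other probe sets were fitted with all 14438 probe sets past the filter. All 5 Nfkbia probe sets had a negative difference in C57BL/6, from -0.13 to -0.48, and in Balb/c they lay between -0.12 and 0.06, none of them called. Between the strains in sham mice all 5 were lower in Balb/c, by values from -0.13 to -0.63. The largest of these, of 1448306_at, was called (-0.63 ± 0.15, adjusted p = 0.021), with means of 12.59 ± 0.23 in C57BL/6 and 11.96 ± 0.16 in Balb/c. The Nfkbia probe sets thus agree in the direction of the strain difference and not in its call.

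The second Nfkbie probe set, 1431843_a_at, had a mean difference of -0.56 ± 0.19, close to that of the first, but was not called (adjusted p = 0.0743). For Nfkbiz the probe sets were spread: 1448728_a_at had -0.56 ± 0.27 (adjusted p = 0.196), where the probe set read first had -0.01. The second Tnfaip3 probe set, 1450829_at, was at the bottom of the scale, 2.23, in all 12 arrays and checks nothing.

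**Figure D3:**
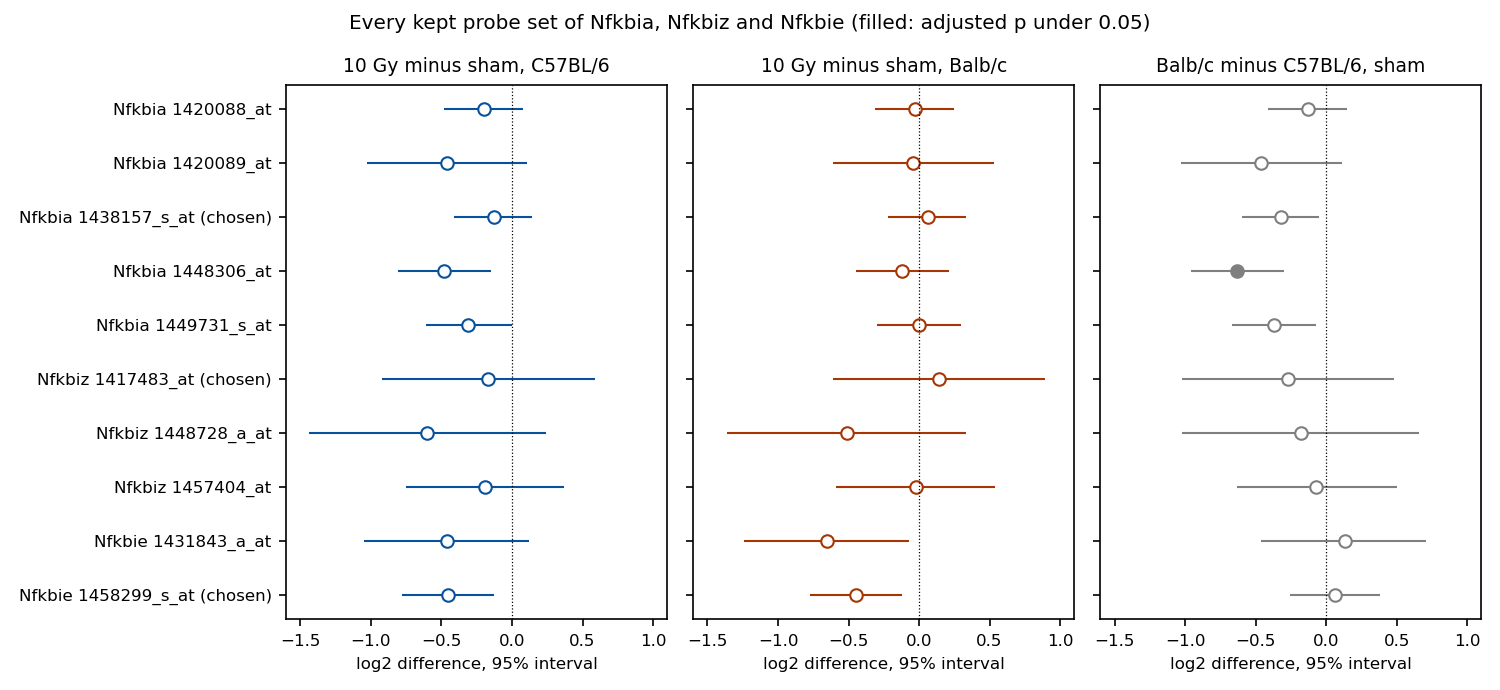
Log2 differences of irradiated against sham in each strain, and of Balb/c against C57BL/6 in sham mice, for the probe sets of Nfkbia, Nfkbiz and Nfkbie past the filter, with 95% intervals and called values filled. The points of the 5 Nfkbia probe sets all lie below 0 in C57BL/6 and between -0.12 and 0.06 in Balb/c, and those of both Nfkbie probe sets lie below 0 in both strains.

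RNA quality measures are given beside these differences. The 3' minus 5' signal of Actb and Gapdh was 3.64 ± 0.13 in C57BL/6 sham, 3.63 ± 0.12 in C57BL/6 irradiated, 3.69 ± 0.14 in sham Balb/c and 4.25 ± 0.56 in irradiated Balb/c mice (exact permutation over 400 arrangements within strains, two-sided p = 0.215). The 18S control signal fell by 0.74 on the log2 scale after irradiation (exact permutation p = 0.005, the smallest this design can give), and its part in the members' differences was not tested. With the 3' minus 5' measure as a covariate, Tnfaip3 kept its call in the mean of both strains (-0.47, adjusted p = 0.0226) and lost it in Balb/c (-0.54, adjusted p = 0.155). The Nfkbie difference was -0.39, and Nfkb2 gained it (-0.74, adjusted p = 0.0393).

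Without the pair of arrays that stood apart, Tnfaip3 was still called in the mean of both strains (-0.48, adjusted p = 0.0268) but not in Balb/c (-0.59, adjusted p = 0.0647).

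The defining microglial markers were bright: P2ry12, Tmem119 and Cx3cr1 had group means between 13.90 and 14.18. Itgam, which encodes CD11b itself, was called lower after irradiation in the mean of both strains by -0.84 ± 0.21 (adjusted p = 0.0237). Of the microglial list 3 of 13 tested genes were called lower. Over all tested genes 8.15% were called lower and 7.72% higher in this comparison. Markers of other cells were called higher: 4 of 6 tested monocyte genes, 7 of 10 border-associated macrophage genes and 6 of 8 astrocyte genes. So were 4 of 7 endothelial cell and pericyte genes and 2 of 4 neutrophil genes. Of 5 tested neuron genes and 2 tested dendritic cell genes none was called. As log2 of the mean linear signal per gene, the monocyte list ran from 5.87 to 6.96 in sham and 7.78 to 8.29 in irradiated C57BL/6 mice, and from 6.44 to 6.84 and 7.46 to 8.10 in Balb/c. The border-associated macrophage list ran from 10.38 to 11.35 and 11.25 to 11.53 in C57BL/6, and from 10.10 to 10.21 and 10.55 to 10.92 in Balb/c. The neutrophil list ran from 5.68 to 8.02 and 5.74 to 8.15 in C57BL/6, and from 3.71 to 4.23 and 6.59 to 8.64 in Balb/c. The astrocyte list ran from 11.29 to 11.63 and 11.81 to 12.60 in C57BL/6, and from 11.24 to 11.67 and 12.09 to 12.76 in Balb/c. The endothelial cell and pericyte list ran from 9.26 to 9.50 and 9.58 to 10.13 in C57BL/6, and from 9.26 to 10.08 and 10.54 to 10.90 in Balb/c. The part of these cells in the members' differences was not tested. The B cell list ran from 7.32 to 8.48 and 7.07 to 7.51 in C57BL/6, and from 6.93 to 7.47 and 6.58 to 7.12 in Balb/c, with 1 of 3 tested genes called lower. The T and NK cell list ran from 2.98 to 4.04 and 4.55 to 5.41 in C57BL/6, and from 2.26 to 2.28 and 2.28 to 5.05 in Balb/c, with 1 gene tested and not called. The oligodendrocyte list lay between 12.29 and 13.19 in all arrays, with none of 7 called by limma. Mbp, a myelin gene of oligodendrocytes, was near 15 in all groups. Cd3e, Cd79a and Pecam1 were at the bottom of the scale in all arrays. The B cell list and the endothelial cell and pericyte list, which hold Cd79a and Pecam1, were not. In such bulk samples fewer cells of a type and less RNA per cell cannot be told apart.

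Single arrays stood high or low in many members together. C57BL/6 sham replicate 1 was the highest of its group in 8 of the 9 measured members and in 20 of 24 early response and heat shock genes, where it was highest in 41.5% of all tested genes. C57BL/6 irradiated replicate 1 was highest in 7 of 9 members and 22 of 24 early response genes, against 33.2% of all tested genes. Balb/c irradiated replicate 3 was lowest in 6 of 9 and 20 of 24, against 32.2%. The 2 lists did not go together in every array. C57BL/6 sham replicate 3 was lowest in 7 of 9 members but in 10 of 24 early response genes, against 33% of all tested genes. Balb/c irradiated replicate 2 was highest in 12 of 24 early response genes but in 2 of 9 members, against 35.7%. The early response list holds genes such as Fos, Junb and Egr1 that rise fast and briefly when a cell is stimulated. Of these, Junb was called lower in the mean of both strains, and Fos and Egr1 were not called.

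The early response genes moved in the same comparison as the members. Of 24 tested, 12 were called lower and 1, Nr4a2, higher in the mean of both strains, with a median log2 difference of -0.49, where the median of all genes was -0.05. Over all tested genes 8.15% were called lower and 7.72% higher. Leaving out each array in turn gave 7 to 14 lower calls and medians from -0.55 to -0.38. Without the pair of arrays that stood apart 7 were called lower and 0 higher, with a median of -0.42, and Nr4a2 had an adjusted p of 0.144. Junb, a subunit of the AP-1 factor, fell by 1.06 ± 0.15 on the log2 scale (adjusted p = 0.00163), and Zfp36, which encodes an mRNA-destabilizing protein, fell by 0.53 ± 0.09 (adjusted p = 0.00331). In Balb/c alone 4 were called lower, Junb, Zfp36, Klf2 and Atf3, against 2.89% of all genes. In C57BL/6 Junb alone was called lower, against 1.46% of all genes. The Balb/c count was 2 to 7 with each array left out, with Atf3 lost without each of 7 arrays and Klf2 without each of 4, and with the 3' minus 5' covariate it was 0, against 10 lower in the mean. The C57BL/6 call of Junb was lost without each of 8 arrays in turn and without the pair of arrays that stood apart (adjusted p = 0.166). The part of the early response in the members' differences was not tested.

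**Figure D4:**
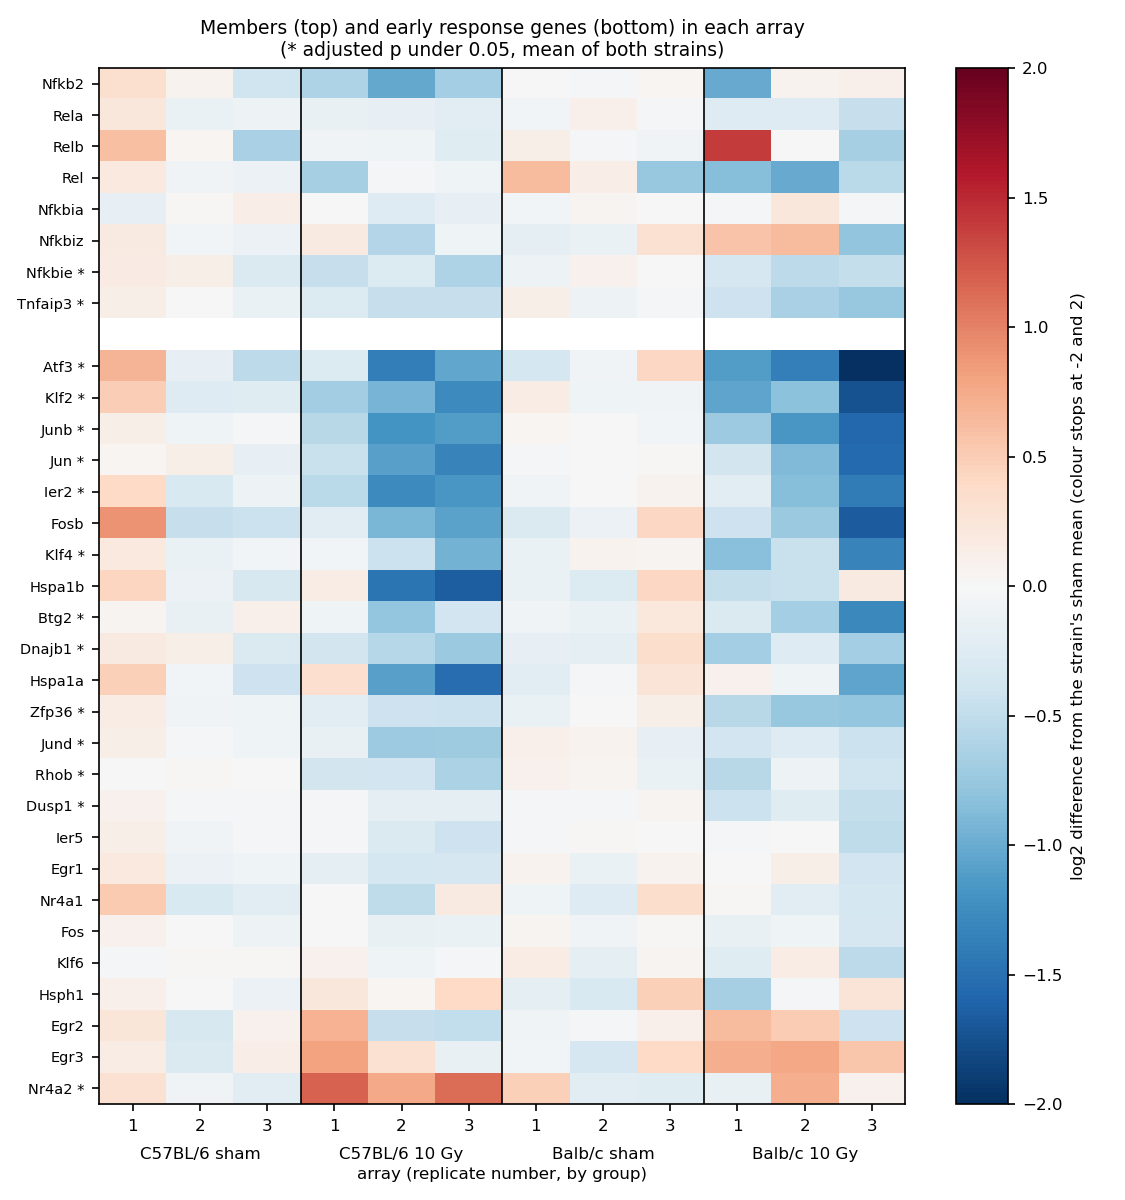
Log2 difference of each array from the mean of its strain's sham arrays, for the 8 tested members (top) and 24 early response and heat shock genes (bottom), with a star at genes called in the mean of both strains. Blue marks lower values, and the colour stops at -2 and 2. Blue fills most irradiated columns for Atf3, Klf2 and Junb, and more faintly for Tnfaip3 and Nfkbie.

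By likeness over the 12 arrays, with each gene's own mean taken off, the tested genes nearest to Tnfaip3 were Zfp36 and Pafah1b3, each with a root mean square difference of 0.11 on the log2 scale, where Tnfaip3 itself ranged over 0.98. For Nfkbie, which ranged over 0.79, they were Pip5k1a (0.09) and Cxxc5 (0.10). Among the members the nearest to both was Rela, at rank 126 for Tnfaip3 and 154 for Nfkbie. Zfp36 had 13.30, 13.09 and 13.07 in C57BL/6 sham, 12.94, 12.74 and 12.72 in C57BL/6 irradiated, 13.03, 13.17 and 13.28 in sham Balb/c and 12.61, 12.40 and 12.38 in irradiated Balb/c mice. The irradiated arrays of Zfp36 lay below the sham arrays in both strains, as in 5.66% of all tested genes. Zfp36 was picked here by its likeness to Tnfaip3 over these same arrays, so this separation is no separate evidence.

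The rest of the pathway was described from fixed lists. In the mean of both strains 7.72% of all tested genes were called higher and 8.15% lower. Of 9 tested IKK and upstream kinases 1, Map3k7 (TAK1), was called higher in the mean of both strains (0.33 ± 0.10, adjusted p = 0.0399), a call lost without each of 9 arrays in turn and without the pair of arrays that stood apart (adjusted p = 0.11). Of 15 adaptors and ubiquitin ligases 4 were called lower, Traf5, Traf6, Bcl10 and Cul1. Traf5, an adaptor of TNF receptor family members, fell by 0.60 ± 0.13 (adjusted p = 0.0136), and Bcl10, which links antigen and lectin receptors to IKK, by 0.33 ± 0.08 (adjusted p = 0.0187), and both held without each array in turn. Traf6 lost its call without each of 9 arrays and without the pair (adjusted p = 0.0858), and Cul1 without each of 5. Of 3 other IkB proteins and 11 other negative regulators none was called by limma. These genes called in the mean of both strains alone were chosen after their values were seen.

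Of 13 receptors 3 were called higher and 1 lower in the mean of both strains, where 7.72% of all tested genes were called higher and 8.15% lower. Tnfrsf11a, which encodes RANK, rose in both strains, from 7.03 ± 0.09 to 7.90 ± 0.13 in C57BL/6 (0.87 ± 0.14, adjusted p = 0.00826) and from 7.75 ± 0.10 to 8.43 ± 0.25 in Balb/c (0.68 ± 0.14, adjusted p = 0.0168). The Balb/c call was lost without Balb/c sham replicate 1 or 2 or Balb/c irradiated replicate 2 or 3, with adjusted p up to 0.0704, and without the pair of arrays that stood apart (0.0574). Tlr3, a receptor for double-stranded RNA, rose in Balb/c from 11.18 ± 0.17 to 11.75 ± 0.14 (0.58 ± 0.12, adjusted p = 0.019), where C57BL/6 had 11.68 ± 0.09 and 11.78 ± 0.08. That call was lost without Balb/c sham replicate 1 or 2 or Balb/c irradiated replicate 2 or 3, and without the pair, with adjusted p up to 0.0747. Il1rap and Tlr3 were the other receptors called higher in the mean of both strains, and both lost that call without the pair (adjusted p = 0.133 and 0.0812); Il1rap also lost it without each of 9 arrays in turn. Tnfrsf1b, the second TNF receptor, had means of 11.43 ± 0.15 and 10.95 ± 0.31 in C57BL/6 and of 11.31 ± 0.09 and 10.76 ± 0.09 in Balb/c, and was called lower in the mean of both strains (-0.51 ± 0.11, adjusted p = 0.0109). Of 7 ligands Tnf was called higher (1.12 ± 0.29, adjusted p = 0.0248), a call lost without C57BL/6 irradiated replicate 1 or Balb/c sham replicate 1 or 2, with adjusted p up to 0.0595, and without the pair (0.0699). Il1rap, Tnfrsf1b and Tnf were named after their values were seen.

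Of 26 textbook NF-kB target genes, 8 were called higher and 2 lower in the mean of both strains, with a median log2 difference of 0.35. Over all tested genes 7.72% were called higher and 8.15% lower. The chemokine gene Cxcl10 rose from 5.99 ± 0.55 to 8.96 ± 0.08 in C57BL/6 (2.97, adjusted p = 0.00503) and from 5.84 ± 0.14 to 7.94 ± 1.03 in Balb/c (2.11, adjusted p = 0.0167). The Balb/c call of Cxcl10 was lost without Balb/c sham replicate 2 or Balb/c irradiated replicate 3, with adjusted p up to 0.0638, and held without the pair (0.0497). Ccl5, a chemokine gene of T cells and macrophages, rose in Balb/c from 3.53 ± 0.27 to 7.72 ± 0.56 (4.19, adjusted p = 0.00862). In C57BL/6 its difference was 2.64 (95% interval 1.06 to 4.22), not called (adjusted p = 0.0691), and the strains were not shown to differ in this effect. Cd83, an activation marker, fell in Balb/c from 11.99 ± 0.03 to 11.11 ± 0.20 (-0.88 ± 0.16, adjusted p = 0.0126), a call lost without Balb/c sham replicate 2 (adjusted p = 0.0518) or without the pair (0.0538). In C57BL/6 the Cd83 difference was -0.26 (adjusted p = 0.379), and the strains were not shown to differ in it. Cd44, also on the monocyte marker list, rose in C57BL/6 by 2.38 (adjusted p = 0.00484). In Balb/c it rose by 1.34 (adjusted p = 0.04), a call lost without each of 8 arrays in turn and without the pair (0.114). The target list thus had a median above 0 in the arrays in which Tnfaip3 and Nfkbie fell, and the part of the monocyte markers in it was not tested.

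**Figure D5:**
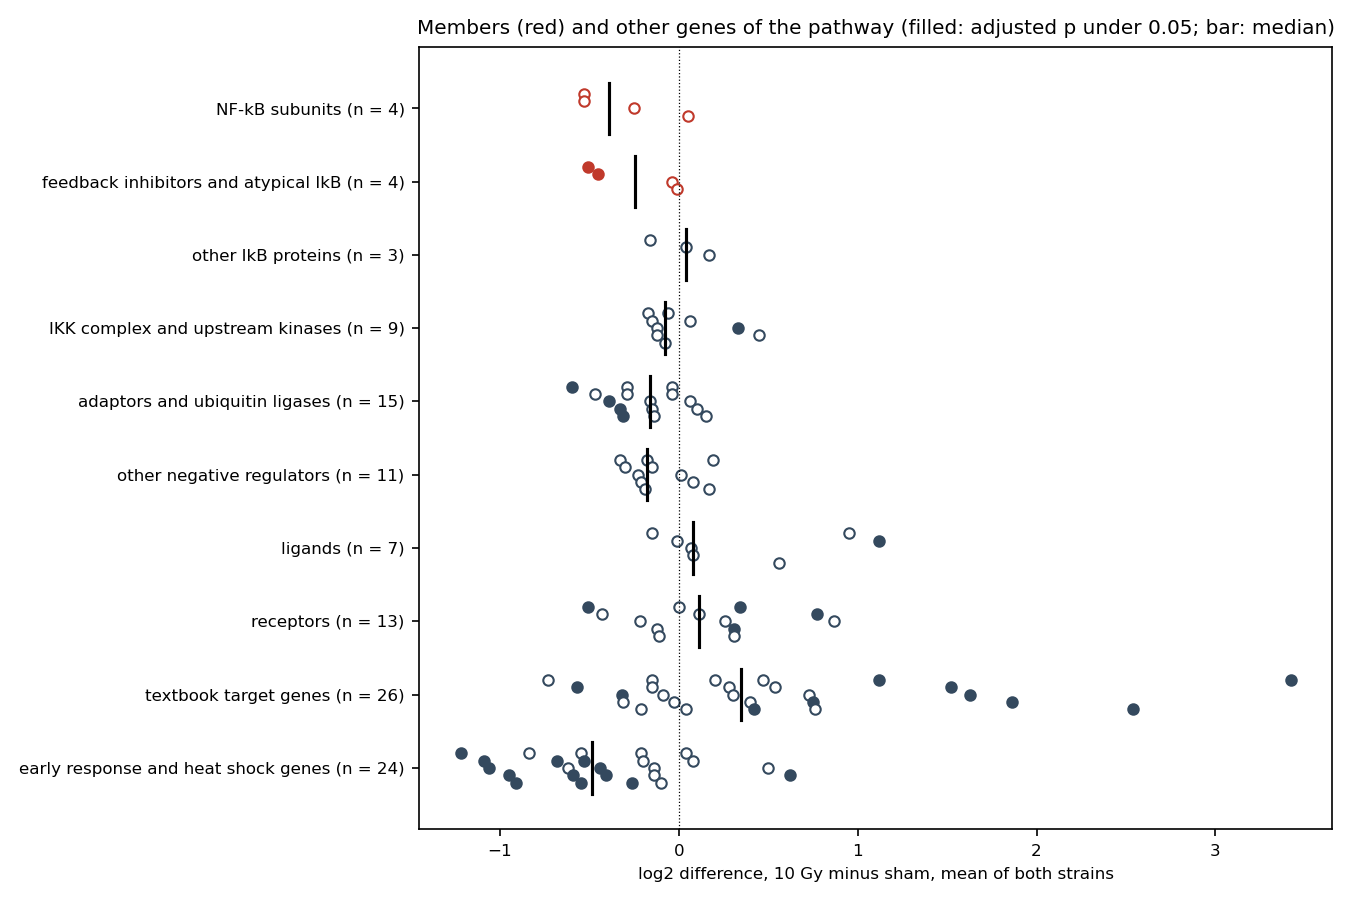
Log2 differences of irradiated against sham, in the mean of both strains, for each tested gene of the NF-kB pathway lists, the members in red, with the list's median as a bar and called genes filled. The textbook targets spread upward to 3.42 with a median of 0.35, and the early response genes lie mostly below 0 with a median of -0.49.

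The κB motif was found in 11 of 29 textbook target genes in the promoter table, 6 of 21 early response genes, 4 of 11 other negative regulators, 3 of 13 receptors, 2 of 15 adaptors and ubiquitin ligases, 2 of 12 IKK and upstream kinases, 1 of 10 ligands and 1 of 4 other IkB proteins, beside the 9.55% of all genes. The targets were listed as known NF-kB targets, so their share is a description of the list.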

How the data were processed

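Gene expression was measured on 12 Affymetrix arrays, 1 mouse each. Expression of 45101 probe sets was deposited by the authors on a log2 scale after GCRMA, whose version is not given in the submitters' processing notes; the 12 arrays had the same sorted values within 0.00034, from 2.23 to 16.17, with a median of 2.44. There were 64 control probe sets; the platform annotation gave 1 gene symbol to 34945 others, several to 932 and none to 9160, and 34741 symbols were updated by Entrez identifier. Each of 18193 genes was read from its brightest probe set, and 9120 had log2 values above 5 in at least 3 arrays. They were fitted with limma 3.58.1 in R 4.3.3 (lmFit, eBayes, 1 mean per group, 8 residual degrees of freedom), with Benjamini-Hochberg adjustment over all of them and a threshold of 0.05. The code was tested on simulated data. Promoter windows are RefSeq's for GRCm38.p6.

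The members, lists, tests and the arrays said to stand apart were chosen with earlier results of these data known. All members and defining markers could be named. So could the called genes of each list by smallest p in the C57BL/6, Balb/c or strain-difference comparison, up to 4 per list and comparison. Exceptions are marked. The textbook targets Tap1 in Balb/c (0.89, limma adjusted p = 0.0167) and Cxcl2 in C57BL/6 (1.91, limma adjusted p = 0.0499) also met this rule and are not described above. Tap1 lost this call without Balb/c irradiated replicate 3, Cxcl2 without each of 10 arrays, and both without the pair. Alternatives were the filter, normalization, floor, probe set choice, fit, replicate block, 3' minus 5' covariate, threshold and each array left out. The normalization alternative was quantile normalization, which could change almost nothing, since the sorted values already were the same within 0.00034. The floor of 4 lay below the lowest value of a tested member, 4.02. These 2 settings are thus no check of the members' values.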

Additional observations from a re-analysis of the deposited data

Results flagged for a closer look

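Il6, a textbook NF-kB target that encodes a proinflammatory cytokine, was the only gene of the pathway lists whose response to irradiation differed between the strains by limma. In C57BL/6 its log2 value was 9.35 ± 0.47 (SD, n = 3) in sham and 9.43 ± 0.22 in irradiated arrays, and in Balb/c it was 6.52 ± 0.20 in sham and 9.48 ± 0.01 in irradiated arrays. The difference of the effects, Balb/c minus C57BL/6, was 2.88 ± 0.30 (adjusted p = 0.00609). It held without each array in turn (adjusted p up to 0.0362) and was lost without the pair of arrays that stood apart (adjusted p = 0.0543).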

How the results depend on the processing

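The number of arrays, 3 a group, limits what can be called, and the values of Rel, Relb and Nfkb2 near 5 hang on the filter: a filter at 7 left all 3 untested, and the mean of all probe sets left Nfkb2 untested. Of 1238 values of single members under the alternatives, 1218 kept their side of the threshold, 10 lost the call and 10 gained it. Most of the 1218 were called in neither fit, so this count says little about how firm the calls are. Every lost call was of Tnfaip3 in Balb/c or of Nfkbie in the mean of both strains. A change of direction was counted only where the main or the alternative fit was called, and 0 were found. Differences called in neither fit could change sign: with each array left out, Relb in C57BL/6 ran from -0.46 to 0.16. The Tnfaip3 difference becomes -0.25 in the mean of both strains when its probe set at the bottom of the scale is averaged in, and Rela is then called (adjusted p = 0.0492).

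In Balb/c the count of called members, 1, became 0 with the arrays of the comparison alone, with the 3' minus 5' covariate, at a threshold of 0.01 and without the 2 arrays that stood apart, and 2 at a threshold of 0.1. In the mean of both strains the count of 2 became 4 at 0.1, and 1 at 0.01 and without the 2 arrays. Between sham strains it rose from 0 to 1 (Nfkbia) with trend and robust variance (adjusted p = 0.0498) and with array weights. Leaving out each array gave 0 to 1 members in C57BL/6, 0 to 2 in Balb/c, 2 to 3 in the mean and 0 to 0 in the difference of effects. The counts of 2 in Balb/c and 3 in the mean hold Rel, without Balb/c sham replicate 3.

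Over all genes, leaving out each array gave 109 to 348 calls in C57BL/6, 211 to 590 in Balb/c, 915 to 1449 in the mean and 2 to 8 in the difference of effects. Without a filter there were 155, 283, 867 and 2 calls in these comparisons. With the arrays of the comparison alone there were 96 in C57BL/6, 364 in Balb/c and 533 between irradiated strains. The covariate gave 104 in Balb/c, 873 in the mean, 3 in the difference of effects and 336 between irradiated strains. A threshold of 0.1 gave 725 in C57BL/6, 1076 in Balb/c and 11 in the difference; 0.01 gave 81, 141, 480 and 2, with 523 between sham and 426 between irradiated strains. Without the 2 arrays there were 97, 350, 769 and 2, and 445 between irradiated strains. All probe sets gave 1249 calls between irradiated strains.

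With the replicate number as a block, no member changed its call: 0 members were called in C57BL/6, 1 in Balb/c and 2 in the mean of both strains, and 378, 580 and 1394 genes in all. Between irradiated strains it called 793 genes and 0 members, against 818 genes without it. The labels do not say that a number is shared by mice. Same-numbered arrays of different groups had correlations of their deviations from -0.05 to 0.45 in 18 pairs, 9 of them over 0.1, and all 3 pairs between the irradiated groups were over 0.1 (0.22, 0.45 and 0.32). Of the 12 arrays 8 correlated best with an array of their own number. The rule that every pair be over 0.1 was not met, so the numbers were not treated as pairing the mice.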
